A study of Homo sapiens with 10 samples.

Results

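CD14, the Toll-like receptors TLR1, TLR2, TLR4, TLR6, TLR7 and TLR8, and the co-receptors LY96 (MD-2), LY86 (MD-1) and CD180 (RP105) were taken as one group of 10 protein-coding genes, chosen by gene symbol from the 60603 genes listed in each experiment. All 10 were found, each as 1 gene. They were measured by mRNA-seq in NB4 cells, a human cell line derived from acute promyelocytic leukemia, in which the myeloid program is arrested at the promyelocyte stage. In one experiment NB4 cells were transduced with the lentiviral vector pLKO.1 puro, either empty (EV) or carrying the short hairpin RNA shA1 or shB2 against GSE1, a subunit of corepressor complexes that contain the lysine demethylase LSD1, and RNA was collected 48 h later. In the other, NB4 cells received the LSD1 inhibitor MC2580 at 2 µM or its solvent DMSO for 24 h. Each of these 5 groups has 2 libraries, and all of them come from 1 cell line grown in culture.

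Toll-like receptors are membrane proteins that bind conserved molecules of microbes and pass the signal to the adaptors MYD88 and TICAM1, which lead to NF-kappaB and interferon responses. TLR4 binds bacterial lipopolysaccharide as a complex with LY96, to which CD14 delivers the ligand. TLR2 pairs with TLR1 or TLR6 to bind bacterial lipoproteins, and TLR7 and TLR8 sense RNA inside endosomes. CD180 resembles TLR4 outside the membrane but lacks its signalling domain, and it needs LY86 to reach the cell surface, much as TLR4 uses LY96. CD14 is a surface marker of monocytes, and the receptors of this group are best known from monocytes, macrophages and granulocytes, and CD180 also from B cells.

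The annotated starts of LY86 and CD180 are shown because these 2 genes encode the partners of one complex and were both higher under both hairpins. Each line gives the 250 bases before the start that RefSeq places on GRCh38.p14, read 5′ to 3′ on the strand of the gene, which is chr6:6588470-6588719 on the plus strand for LY86 and chr5:67196800-67197049 on the minus strand for CD180. Capitals mark the letters GAGGAAG, a site type bound by PU.1 and other ETS factors, in LY86 and a match to TTGCNNAA, a C/EBP site type, in CD180.
LY86: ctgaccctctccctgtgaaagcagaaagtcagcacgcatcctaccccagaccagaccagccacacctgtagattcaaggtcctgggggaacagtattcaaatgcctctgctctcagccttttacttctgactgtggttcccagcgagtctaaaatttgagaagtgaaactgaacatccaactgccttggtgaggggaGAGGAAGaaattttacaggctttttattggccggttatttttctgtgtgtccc
CD180: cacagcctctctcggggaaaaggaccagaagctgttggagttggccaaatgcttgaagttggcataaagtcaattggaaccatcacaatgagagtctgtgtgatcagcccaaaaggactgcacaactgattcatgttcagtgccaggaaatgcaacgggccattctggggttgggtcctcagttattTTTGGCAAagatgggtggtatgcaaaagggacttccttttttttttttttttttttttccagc
The letters GAGGAAG start 53 bases before the LY86 start, and on either strand they occur in the same window of 11.2% of the 35116 promoters in the table. The C/EBP match in CD180 lies on the opposite strand and starts 63 bases before the start, and 9.05% of all promoters hold such a match. The stretch before LY86 also lies inside the span that GENCODE annotates for the gene, which begins further upstream, at chr6:6588108.

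Promoters were given for 7 of the 10 members. GAGGAAG was present 4 times before TLR4, at 225, 172, 100 and 40 bases from the start, and 1 time each before CD14, TLR6 and LY86. TTGCNNAA was present 1 time each before TLR8 and CD180. No member of the 7 held the pattern searched for an interferon-stimulated response element, which 3.02% of all promoters held. Nor did any hold that for an NF-kappaB site (1.73%) or TAAATCAC (0.555%), the only pattern searched for a GFI1-like site. Both strands were searched, with 1 strict pattern per site type. Shorter or variant forms of these sites were not searched and may be present. None of the matches found overlapped another in the sequences printed, and a match describes letters in this window only.

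The values are those in the authors' deposited tables, which hold no value per library. The level in each group is therefore shown as a reconstruction from the base mean, the mean normalized count of a gene over every library of an experiment, and from the fold changes. These group levels carry the same fold changes as the tests and are not separate evidence. A gene was called where its adjusted p-value was under 0.01 and its log2 fold change was larger than 1 in size. The base means summed to 40543130 over all genes in the GSE1 experiment and to 41201112 in the MC2580 experiment. The log2 fold change of GSE1 itself was -0.77 ± 0.13 (SE) in shA1 and -0.79 ± 0.14 in shB2, at a base mean of 2963, with adjusted p-values of 2.47e-07 and 7.66e-08 by the deposited Wald test. Its change with MC2580 was 0.07 ± 0.20, and KDM1A, which encodes LSD1, changed by -0.03 ± 0.10, 0.03 ± 0.10 and -0.05 ± 0.19 in the 3 comparisons. The GSE1 changes stayed under the fold threshold, and none of these values was called.

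Of the 10 receptor genes, 5 were called higher under at least 1 of the hairpins against GSE1, and 1 with MC2580. Under shA1, TLR1, TLR6, LY86 and CD180 were called higher, 4 of the 7 members with an adjusted p-value, where 4.32% of all 16673 genes tested were called higher and 0.786% lower. Under shB2 the same 4 and CD14 were called higher, 5 of 7, where 5.58% of 17913 genes were called higher and 2.91% lower. With MC2580 only LY86 was called higher, 1 of 8, where 0.587% of 18554 genes were called higher and 0.0162% lower. No member was called lower in any of the 3 by the deposited Wald test, and at an unadjusted p under 0.05 1 was lower in shB2 (TLR2) and 0 in each of the others. The 4 genes called under both hairpins are TLR1, TLR6, LY86 and CD180, and 422 of the 16673 genes tested in both were called higher in both. Both hairpins were compared with the same EV libraries, so that an error in EV enters both estimates. EV carries no hairpin, so an effect of expressing any hairpin cannot be told apart from that of GSE1 KD. Tested against a log2 fold change of 1 instead of 0, at an adjusted p under 0.05, CD180 stayed called under both hairpins and LY86 in shB2, while the calls of TLR1 and TLR6 under both hairpins, of CD14 in shB2 and of LY86 in shA1 and with MC2580 were lost.

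The median log2 fold change of the tested members was 1.47 in shA1, 1.53 in shB2 and 0.70 with MC2580, beside medians between -0.002 and 0.001 over all genes tested. In shA1 the members ranged from 0.63 to 3.74 and all were above 0. In shB2 they ranged from -0.77 to 3.49, with TLR2 the member below 0. With MC2580 they ranged from -0.48 to 4.28, but both the maximum and the median of 0.70 rest on LY96, which was nearly absent in DMSO. Over the 7 members tested in all 3 comparisons the MC2580 median was 0.29 and the maximum 1.44. These medians cover only the members that passed the filter on low base means, and TLR7, TLR8 and, in the GSE1 experiment, LY96 did not.

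CD180, the TLR4 homologue without a signalling domain, had the largest fold change of the 7 members tested under each hairpin. The gene lies on chr5:67179613-67196799 on the minus strand. Its reconstructed level was 41.4 normalized counts in EV, 555 in shA1 and 464 in shB2, and that in EV became 66.5 when taken from the geometric mean of the fold changes. This is 13.4-fold over EV in shA1 (log2 fold change 3.74 ± 0.29, SE, adjusted p = 4.55e-35 by the deposited Wald test) and 11.2-fold in shB2 (3.49 ± 0.29, adjusted p = 1.54e-30). The hairpins differed by -0.26 (95% interval -1.07 to 0.55), which was not called. In the MC2580 experiment the level was 34.2 normalized counts in DMSO and 74.0 in MC2580, a log2 change of 1.12 ± 0.58 with an adjusted p of 0.901.

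The CD180 change with MC2580 was lower than that under each hairpin. On the log2 scale MC2580 minus shA1 was -2.63 ± 0.65 (adjusted p = 0.00302, Wald test of the difference) and MC2580 minus shB2 was -2.37 ± 0.65 (adjusted p = 0.00498). CD180 was the one member called in these 2 contrasts, where 1.5% of 16495 and 2.47% of 17378 genes were called lower. Tested against a difference of 1 in size, neither CD180 difference was called. The experiments differ in time (24 h and 48 h), in agent and in the use of a vector, and these cannot be told apart from the difference between GSE1 KD and LSD1 inhibition.

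LY86, which encodes the secreted partner of CD180, was called higher in all 3 comparisons and was the highest member per length. It lies on chr6:6588108-6654983 on the plus strand. Its reconstructed level was 260 normalized counts in EV, 716 in shA1 and 980 in shB2, and 307 in DMSO and 807 in MC2580. The log2 fold changes were 1.46 ± 0.19 in shA1 (adjusted p = 3.85e-13), 1.92 ± 0.19 in shB2 (adjusted p = 1.01e-22) and 1.39 ± 0.30 with MC2580 (adjusted p = 0.000805), all from the deposited Wald test. In fold terms these are 2.76, 3.78 and 2.63.

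None of the differences in LY86 between the comparisons passed the threshold. The value of shB2 minus shA1 was 0.45 (95% interval -0.07 to 0.97), that of MC2580 minus shA1 was -0.07 (-0.77 to 0.63), and that of MC2580 minus shB2 was -0.52 (-1.22 to 0.17). The first interval is too wide, because both hairpins share the EV libraries. Its adjusted p was 0.368, and 0.0664 with the covariance of EV subtracted (Wald test of the difference). The antisense gene LY86-AS1 overlaps the locus but shares 0 annotated exon bases with LY86, and the library kit does not mark strand. Its base mean was 19.1 in the GSE1 experiment and 22.7 in the MC2580 experiment, against 652 and 557 for LY86, and LY86-AS1 was called in none of the 3 comparisons, with its lowest adjusted p of 0.0723 in shB2 (log2 fold change 2.09 ± 0.94, deposited Wald test).

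Set side by side per length, the partners CD180 and LY86 stood closer under the hairpins than in EV, a description that was not tested. In EV the level of CD180 was 7.30 normalized counts per kb of exon and that of LY86 was 216. In shA1 they were 97.9 and 596 per kb, and in shB2 81.8 and 815 per kb. LY86 therefore remained above its partner per length in every group, MC2580 included, at 671 against 13.1 per kb.

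Of the lipopolysaccharide receptor genes, CD14 was called higher in shB2 and TLR4 and LY96 were called in no comparison. CD14 lies on chr5:140631728-140633700 on the minus strand and was low in EV, at a reconstructed 6.97 normalized counts. It was at 36.5 in shA1 and 51.4 in shB2. In shA1 the log2 fold change was 2.39 ± 0.84 with an adjusted p of 0.0200 by the deposited Wald test, which did not pass 0.01, and in shB2 it was 2.88 ± 0.83 with an adjusted p of 0.00255, which did. The hairpins differed by 0.49 (95% interval -1.83 to 2.81), so that the calls differ but a difference between the hairpins was not shown.

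CD14 with MC2580 was at 14.6 normalized counts against 20.4 in DMSO, a log2 change of -0.48 with a 95% interval from -2.36 to 1.39. The differences of MC2580 from shA1 and shB2 were -2.87 ± 1.27 and -3.37 ± 1.27, with adjusted p-values of 0.212 and 0.0649 by the Wald test of the difference, and neither was called. The base mean of 17.5 leaves this interval wide.

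TLR4 lies on chr9:117704175-117724735 on the plus strand and had the largest base mean of the members in the GSE1 experiment, 1083. Its reconstructed level was 765 normalized counts in EV, 1275 in shA1 and 1208 in shB2. The log2 fold changes were 0.74 ± 0.16 and 0.66 ± 0.16, with adjusted p-values of 3.19e-05 and 0.000172 by the deposited Wald test. Both p-values passed the threshold and both changes, 1.67-fold and 1.58-fold, were under the fold threshold.

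With MC2580, TLR4 was at 481 normalized counts against 529 in DMSO, a log2 change of -0.14 (95% interval -0.64 to 0.36). MC2580 minus shA1 was -0.87 ± 0.30 and MC2580 minus shB2 was -0.80 ± 0.30, and their adjusted p-values of 0.0658 and 0.0635 by the Wald test of the difference did not pass.

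LY96, the co-receptor of TLR4, was close to the lower limit of what was counted. Its base mean was 3.85 in the GSE1 experiment, where it has no adjusted p-value and its log2 fold changes of 3.45 and 3.48 have standard errors of 2.25 and 2.24. In the MC2580 experiment the base mean was 9.18 and the reconstructed level 0.900 in DMSO and 17.5 in MC2580, with 2.08 in DMSO by the geometric mean. The log2 change of 4.28 ± 1.62 had an unadjusted p of 0.00835 and an adjusted p of 0.354, and it was not called. With this few counts the size of the change is not well determined, as its 95% interval from 1.10 to 7.45 shows.

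Of the lipoprotein receptors, TLR1 and TLR6 were called higher under both hairpins, while their shared partner TLR2 was called under neither. TLR1 was at 121 normalized counts in EV, 369 in shA1 and 350 in shB2, with log2 fold changes of 1.61 ± 0.32 (adjusted p = 6.77e-06 by the deposited Wald test) and 1.53 ± 0.32 (adjusted p = 1.35e-05). TLR6 was at 296 in EV, 821 in shA1 and 680 in shB2, with log2 fold changes of 1.47 ± 0.23 (adjusted p = 2.32e-09) and 1.20 ± 0.23 (adjusted p = 1.22e-06). In fold terms TLR1 rose 3.05 and 2.89 times and TLR6 2.77 and 2.30 times. The hairpins differed by -0.08 (95% interval -0.96 to 0.80) in TLR1 and by -0.27 (-0.90 to 0.36) in TLR6.

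TLR1 and TLR6 overlap on the minus strand, at chr4:38790677-38856817 and chr4:38822897-38856817. The annotated span of TLR6 lies inside that of TLR1, and on this strand both begin at base 38856817. Their annotated exons share 57 bases, 1.26% of those of TLR1 and 0.832% of those of TLR6. The proteins are close relatives, and reads that match both genes could be split between them by the authors' quantification, so that their separate values are uncertain to that extent.

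With MC2580, TLR1 was at 176 normalized counts against 65.0 in DMSO, a log2 change of 1.44 ± 0.44, close in size to that under the hairpins. Its unadjusted p of 0.00110 became an adjusted p of 0.0875, and it was not called. The difference from the hairpins was -0.17 (95% interval -1.24 to 0.90) for shA1 and -0.09 (-1.16 to 0.98) for shB2, and the lower ends of both intervals lie beyond a 2-fold difference. TLR6 with MC2580 was at 302 against 248 in DMSO, a log2 change of 0.29 (95% interval -0.47 to 1.05). Its difference from shA1 was -1.19 ± 0.45 (adjusted p = 0.113, Wald test of the difference) and from shB2 -0.91 ± 0.45 (adjusted p = 0.203), neither of which was called.

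TLR2, on chr4:153684070-153706260 on the plus strand, was the 1 member called as different between the hairpins. Its reconstructed level was 268 normalized counts in EV, 414 in shA1 and 157 in shB2. The log2 changes from EV were 0.63 ± 0.26 in shA1 (adjusted p = 0.0511 by the deposited Wald test) and -0.77 ± 0.26 in shB2 (adjusted p = 0.0121), and neither was called. Taken as a difference, shB2 minus shA1 was -1.40 with a standard error of at most 0.37 (adjusted p = 0.00257, Wald test of the difference). This was 1 of the 7 members tested, where 2.2% of 16673 genes were called lower in shB2 than in shA1. The standard error is an upper bound because both hairpins share the EV libraries. The difference was not called with a threshold of 2 on the log2 scale or when tested against a difference of 1 in size. With MC2580 TLR2 was at 272 against 268 in DMSO, a log2 change of 0.02 (95% interval -0.68 to 0.73).

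The endosomal receptors TLR7 and TLR8 were at or near 0 throughout. Their base means were 0.221 and 0.752 in the GSE1 experiment, and both were listed at 0 in the MC2580 experiment. No adjusted p-value was given for either, and a change in them was not detectable at this depth.

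Per length, 6 of the 10 members stood near the middle of all 19975 protein-coding genes in the GSE1 experiment, genes without counts included. LY86 was higher there, and LY96, TLR7 and TLR8 were lower. In that experiment LY86 stood at percentile 83.9, TLR6 at 58.0, TLR4 at 57.3, CD180 at 54.6, TLR1 at 54.5, TLR2 at 52.3, CD14 at 46.5, LY96 at 41.4, TLR8 at 22.4 and TLR7 at 15.7, all by base mean per kb of exon. In the MC2580 experiment LY86 stood at 82.2, while CD14 was at 43.8, CD180 at 43.2 and TLR7 and TLR8, listed at 0, at 7.14. Of the 19975 genes, 12919 had an adjusted p-value in shA1, so a middle rank is lower among the genes tested. The base mean of the GSE1 experiment also averages EV with both hairpins, and CD180 was at 62.3 per kb by it. In EV alone, with LY96, TLR7 and TLR8 left out for their low counts, the order per kb was LY86 (216), TLR4 (57.6), TLR2 (46.5), TLR6 (43.2), TLR1 (26.7), CD180 (7.30) and CD14 (4.23). In shA1 it was LY86, TLR6 (120 per kb), CD180 (97.9), TLR4 (96.0), TLR1 (81.4), TLR2 (71.7) and CD14 (22.2). The exon length joins the exons of every annotated transcript of a gene, whether or not it is expressed here. The order of close neighbours, such as CD180 and TLR4 in shA1, can therefore depend on the annotation. Without values per library the neighbours in these orders could not be tested against each other.

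The other genes of the pathway were read from a list of 33 signalling, chaperone, ligand transfer and receptor genes outside the members, of which 31 had an adjusted p-value in each comparison. In shA1, 4 of 31 were called higher, in shB2 4 of 31, and with MC2580 0 of 31, and none was called lower in any of these. The shares called higher over all genes were the 4.32%, 5.58% and 0.587% given above. The median log2 change of the list was 0.12, 0.47 and 0.13, against 0.00 over all genes. At an unadjusted p under 0.05 by the deposited Wald test, 11 of the 31 moved in shA1, 8 higher and 3 lower, beside 35.3% of all genes. In shB2 15 did so, 12 higher and 3 lower, beside 40.4% of all genes, and with MC2580 3, all higher, beside 5.77%.

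Of the 19 signalling genes 3 were called higher in shA1 and 4 in shB2, and of the 7 chaperones and trafficking genes 1 in shA1 and 0 in shB2. MYD88, the adaptor used by most Toll-like receptors, had log2 fold changes of 1.55 ± 0.11 in shA1 and 1.10 ± 0.11 in shB2, with adjusted p-values of 8.15e-43 and 4.69e-22 by the deposited Wald test. Its change with MC2580 was 0.44 ± 0.21, and MC2580 minus shA1 was -1.11 ± 0.24 (adjusted p = 0.000296, Wald test of the difference). MC2580 minus shB2 was -0.67 ± 0.24 (adjusted p = 0.0447), which was not called. TICAM1 (TRIF), the adaptor of the interferon branch of TLR3 and TLR4, had 1.68 ± 0.40 in shA1 and 1.27 ± 0.41 in shB2, with adjusted p-values of 0.000294 and 0.00702. TICAM2 (TRAM), which links TLR4 to TICAM1, was called in shB2 at 2.12 ± 0.51 (adjusted p = 0.000213) and had 1.16 ± 0.52 in shA1.

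PIK3AP1 (BCAP), a scaffold that restrains Toll-like receptor signalling through PI3K, was called in shB2 at 1.04 ± 0.10 and stood at 0.86 ± 0.10 in shA1. UNC93B1, which escorts the nucleic acid receptors to endosomes, was called in shA1 at 1.21 ± 0.16 and stood at 0.85 ± 0.16 in shB2. For both genes the adjusted p-values of the values not called passed 0.01 and the fold threshold decided. IRAK2, a kinase downstream of MYD88, was called in shA1 at 1.33 ± 0.35 and stood at -0.63 ± 0.36 in shB2. The IRAK2 difference of shB2 minus shA1 was -1.96 with a standard error of at most 0.50 (adjusted p = 0.00194), of the same sign as that of TLR2. MYD88 in MC2580 minus shA1 and IRAK2 in shB2 minus shA1 were the list's 1 gene called lower in each of these contrasts, beside the 1.5% and 2.2% of all genes given above.

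The genes with the pattern most like each called member were sought by Euclidean distance over the 3 log2 fold changes, among 10910 other protein-coding genes whose base means reached 50 in each experiment. The genes closest to CD180 were IL10RA, the ligand-binding chain of the interleukin-10 receptor, with 3.72, 3.74 and 0.80 in shA1, shB2 and MC2580, and ZFP36L1 with 3.27, 3.64 and 1.41. Those closest to LY86 were NHSL1 (1.44, 1.80 and 1.29) and SORBS3 (1.55, 1.86 and 1.25). Those closest to TLR6 were CKLF-CMTM1 (1.52, 1.15 and 0.39) and ATG9A (1.43, 1.19 and 0.41), those closest to TLR1 were AC068946.2 (1.44, 1.49 and 1.14) and NHSL1, and those closest to CD14 were SIGLEC14 (1.99, 2.77 and -0.09) and AC004223.3 (2.19, 2.33 and -0.12). The distances ranged from 0.13 for TLR6 to 0.69 for CD14. Likeness over 3 comparisons, of which 2 share a control, is a description.

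Marker genes of the cell stages were read beside these changes. Of 8 promyelocyte genes, 7 were tested, and 2 were called lower in shA1 and 3 in shB2, with 0 called in MC2580. At an unadjusted p under 0.05, 5 were lower and 1 higher in shA1, 4 lower and 1 higher in shB2, and 1 lower and 1 higher with MC2580, beside the shares of all genes given for the pathway list. Their summed reconstructed level was 729881 normalized counts in EV, 439132 in shA1, 388592 in shB2, 768329 in DMSO and 922015 in MC2580, nearly all of it from MPO, while ELANE had a base mean of 1.10 in the GSE1 experiment. Of 8 monocyte or macrophage genes other than the members, 6 were tested, and 1 was called higher in shA1 (CSF1R), 0 in shB2 and 2 with MC2580 (LYZ and CCR2). At an unadjusted p under 0.05 by the deposited Wald test, 3 passed in shA1 and 4 with MC2580, all higher. In shB2 4 were higher and 1 lower. Of all genes, 35.3% passed that in shA1, 40.4% in shB2 and 5.77% with MC2580. Their summed level was 4819 in EV, 7891 in shA1, 7830 in shB2, 3965 in DMSO and 18413 in MC2580. These sums rest largely on LYZ, which had base means of 4923 and 9248 and rose 6.59-fold with MC2580. Of the same list, CD163 and MRC1 were at base means of 0.170 and 0 in the GSE1 experiment and 2.73 and 0 in the MC2580 experiment. CD68, at a base mean of 846 in the GSE1 experiment, had log2 fold changes of 0.80 in shA1 and 0.44 in shB2. FCGR1A, at 195 there, had -0.45 and -0.84, and neither CD68 nor FCGR1A was called.

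B cells also carry CD180, so their markers were read too. Of 6 B cell genes 4 were tested and 0 were called in any of the 3 comparisons. At an unadjusted p under 0.05 by the deposited Wald test, 2 were higher in shA1 (CD79B and PAX5) and 1 in shB2 (CD79B). With MC2580 0 passed. Of all genes, 35.3%, 40.4% and 5.77% passed that. MS4A1 had a base mean of 0.217 in the GSE1 experiment. The summed level was 888 in EV, 1269 in shA1 and 1603 in shB2, most of it from CD79B (base mean 1071). The 4 dendritic cell genes found had base means of at most 3.25 in the GSE1 experiment and none was tested. The 5 erythroid genes had base means of at most 15.8 there, and of the 2 tested 0 were called, with 1 at an unadjusted p under 0.05 in shB2. Of 5 T cell genes 4 were tested, and 0 were called in shA1 and with MC2580. In shB2 1 was called higher (CD2) and 1 lower (CD3D), where 5.58% of all genes were called higher and 2.91% lower. CD2 had a base mean of only 13.1 and a log2 change of 5.91 ± 1.71, and CD3D had a base mean of 866. The part of these marker changes in the results for the members was not tested.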

How the data were processed

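NB4 RNA was sequenced as mRNA-seq libraries made with a kit that does not mark strand. Per the submitters' processing notes, bcl2fastq 2, FastQC 0.11.5, STAR 2.7, RSEM and DESeq2 were used with hg38. The versions of RSEM and DESeq2 and the annotation release are not given in the sources used here.

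The deposited tables hold the authors' own comparisons in DESeq2 and no value per library. For each hairpin against EV and for MC2580 against DMSO, the deposited log2 fold change and standard error of every gene were taken as the authors' fit gave them. Each deposited Wald p-value and adjusted p-value was taken likewise, and low genes have no adjusted one. The signal deposited by the authors is the base mean, an average of counts divided by size factors. The results therefore rest on the authors' fit, and no depth per library, count interval or exact test was computed. The study calls the 2 libraries of a group biological replicates. The columns were assigned to shA1 and shB2 by a mapping given for this work, since the headers name the hairpins otherwise.

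Calls took an adjusted p under 0.01 and a log2 fold change over 1 in size. Differences between comparisons were tested over all genes (Wald test, Benjamini-Hochberg adjusted), with Python 3.11.15, pandas 2.3.3, numpy 2.4.6 and scipy 1.17.1. A run on simulated data drew independent noise of the deposited standard errors for shA1 and MC2580. It checks the arithmetic only, and neither standard errors from 2 libraries nor the EV libraries shared by the hairpins. The intervals are 95% normal intervals, and those of shB2 minus shA1 are too wide for every gene because the hairpins share EV. The level of EV was taken as the base mean times the number of groups over the summed fold changes, likewise for DMSO. Positions and exon lengths came from GENCODE 44 on GRCh38, in which 60261 of 60603 genes and all members were found, and promoters from RefSeq. Members and lists were chosen with earlier results of these data known. The genes named were the members, GSE1, KDM1A, pathway genes called in at least 1 comparison, and the 2 genes nearest to each called member. Marker genes and LY86-AS1 are named outside this rule, chosen after their values were seen, and 1 gene of the monocyte list is not reported here and was left out of its counts and sums. The alternatives were other thresholds and other sets of genes in the adjustment.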

Additional observations from a re-analysis of the deposited data

Results flagged for a closer look

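3 values stood out because a change differed between groups by a test of the difference itself. TLR2 in shB2 minus shA1 was -1.40 on the log2 scale, with the TLR2 estimate above EV in shA1 and below it in shB2, neither of them called. CD180 in MC2580 minus shA1 was -2.63, and CD180 in MC2580 minus shB2 was -2.37, with CD180 above its control in all 3 comparisons. The CD180 values share the MC2580 and DMSO libraries and are not independent of each other.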

How the results depend on the processing

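Of 259 member values under the alternatives, 238 gave the same call as in the text, 3 were called in addition and 18 were no longer called. Much of this sameness was fixed in advance, since looser thresholds cannot lose a call and stricter ones cannot add one. The 238 is therefore no measure of how stable the calls are. Of the 18 losses, 8 came with a log2 fold change over 2 and 10 with a test against 1. With a log2 fold change over 2, the members called were 1 in shA1 (CD180), 2 in shB2 (CD180 and CD14) and 0 with MC2580, and the pathway genes called were 0 in shA1 and 1 in shB2, beside 1.43%, 2.34% and 0.232% of all genes. With a test against a log2 fold change of 1, at an adjusted p under 0.05, the members called were 1 (CD180), 2 (CD180 and LY86) and 0. The pathway genes called were 1 in shA1 and 0 in shB2. The shares of all genes, again in both directions, were 1.07%, 2.08% and 0.0755%. Both settings ask for a larger change by construction. CD14 in shA1 was called at an adjusted p under 0.05 (0.0200). TLR4 was called in both hairpins with no fold threshold, under which 8 and 12 pathway genes were called in either direction in shA1 and shB2, beside 19.3% and 26.3% of all genes. The adjusted p of TLR2 in shB2 became 0.00956 over protein-coding genes and 0.00872 with a base mean of at least 50, with its fold change still under the threshold. CD14 has a base mean under 50 and was not tested with that minimum. The differences called for TLR2 and CD180 were called again at an adjusted p under 0.05, with no fold threshold, with a base mean minimum of 50 and, for TLR2, with the covariance of EV subtracted, which are mostly looser settings. In 2 stricter settings chosen after seeing the data, a difference over 2 left 0 members in shB2 minus shA1 and kept CD180 in both contrasts with MC2580, and a test against a difference of 1 left 0 in each of the 3. The median EV level of the members was 81.3 normalized counts, and 101 when taken from the geometric mean of the fold changes, by which the levels in EV of CD180, LY96 and TLR8 were 1.61, 1.55 and 1.88 times as high and that of LY96 in DMSO 2.32 times. No paired analysis was possible because the tables used here hold no value per library. For the same reason edgeR, other normalizations, a replicate block and leaving out each replicate were not run, and whether 1 library decides a value was not tested. A low base mean limits LY96, TLR7, TLR8 and CD14.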
